A study of Homo sapiens with 14 samples.

Results

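The HOX genes encode homeodomain transcription factors and lie in 4 clusters. These are HOXA on chromosome 7, HOXB on chromosome 17, HOXC on chromosome 12 and HOXD on chromosome 2. The 38 members analysed here were 10 HOXA, 10 HOXB, 9 HOXC and 9 HOXD genes. They were chosen by family membership, out of 63677 gene IDs in the bulk tables, with earlier results of these data known. The 14 samples came from H9, a human embryonic stem cell (hESC) line. The bulk RNA-seq comprised 2 libraries of undifferentiated hESC, 3 of definitive endoderm from hESC carrying dCAS9-KRAB (a dead Cas9 fused to a repressor domain) but no sgRNA, 3 of the same endoderm with an sgRNA against the LTR5 family of endogenous retroviral promoters (CRISPRi), and 2 of foregut-stage cells for each of the control and CRISPRi arms. Endoderm was made with 100 ng/ml Activin A for 3 days and the WNT agonist CHIR-99021 at 5 µM on the first day and 0.5 µM on the second, and the foregut stage followed after 3 further days in a commercial pancreatic kit. The transduced cells were kept as a puromycin-selected population, and no source used here says whether the hESC libraries carried the dCAS9-KRAB vector, so that stage and vector cannot be told apart in comparisons with hESC. The remaining samples were the RNA and the ATAC libraries of 1 multiome preparation of nuclei from gastruloids, embryo-like aggregates seeded at 800 cells per well in 3 µM CHIR-99021 together with Rock inhibitor at 10 µM, and harvested at 72 h.

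HOX genes are numbered by paralog group from the 3' end of each cluster, and groups 1 to 3 (anterior), 4 to 8 (central) and 9 to 13 (posterior) are switched on in that order in the extending embryo and mark successively more tailward levels of the body axis. Retinoic acid, WNT and FGF signals and the caudal factors CDX1, CDX2 and CDX4 open the clusters, Polycomb complexes keep them closed, and PBX, MEIS and PKNOX proteins bind DNA together with the HOX proteins. In endoderm, anterior HOX genes are known for their part in the pharyngeal region and the foregut, while in the neural tube and the paraxial mesoderm, the tissue that forms vertebrae and muscle, the code sets segment identity.

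The promoter windows of 4 members are shown as members with a window whose RNA was called different between the stages described below. RefSeq gave windows of 250 bases before to 50 after the start site for 20 of the 38 members. Capitals mark matches, on either strand, to the joint HOX and PBX spelling TGATNNAT or to 1 of 3 further spellings. These are TTTATG for the caudal CDX factors. The TATA box was searched as TATAAA. A spelling bound by retinoid receptors was searched as AGTTCA. The sequences are from GRCh38.p14, with HOXB1 at chr17:48530962-48531261 on the minus strand, HOXA2 at chr7:27102634-27102933 on the minus strand, the outermost of several HOXA3 start sites at chr7:27152534-27152833 on the minus strand, and HOXD13 at chr2:176092471-176092770 on the plus strand.
HOXB1: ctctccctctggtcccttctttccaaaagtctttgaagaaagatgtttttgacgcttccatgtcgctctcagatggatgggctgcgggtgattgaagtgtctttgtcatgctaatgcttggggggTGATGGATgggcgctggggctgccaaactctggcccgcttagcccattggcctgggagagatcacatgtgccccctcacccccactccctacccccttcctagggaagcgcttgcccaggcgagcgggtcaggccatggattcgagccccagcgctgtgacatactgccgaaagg
HOXA2: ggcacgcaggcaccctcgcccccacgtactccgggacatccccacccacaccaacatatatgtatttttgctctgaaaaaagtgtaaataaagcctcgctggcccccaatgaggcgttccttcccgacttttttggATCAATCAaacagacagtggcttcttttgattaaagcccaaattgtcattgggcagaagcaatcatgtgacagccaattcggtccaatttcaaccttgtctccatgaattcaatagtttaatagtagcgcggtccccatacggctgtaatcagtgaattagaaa
HOXA3: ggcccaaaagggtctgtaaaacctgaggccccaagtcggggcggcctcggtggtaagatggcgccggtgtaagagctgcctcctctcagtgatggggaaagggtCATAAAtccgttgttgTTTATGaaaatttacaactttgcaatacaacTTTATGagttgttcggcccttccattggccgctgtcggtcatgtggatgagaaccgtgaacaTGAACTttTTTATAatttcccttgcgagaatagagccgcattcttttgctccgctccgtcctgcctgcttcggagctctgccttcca
HOXD13: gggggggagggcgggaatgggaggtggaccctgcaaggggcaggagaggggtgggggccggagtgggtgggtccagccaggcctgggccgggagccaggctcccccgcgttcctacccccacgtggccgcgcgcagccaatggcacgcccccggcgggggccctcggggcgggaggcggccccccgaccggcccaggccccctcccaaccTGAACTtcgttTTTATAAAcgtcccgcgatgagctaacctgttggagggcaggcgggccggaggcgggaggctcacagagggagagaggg
The HOX and PBX spelling stood 125 bases before the HOXB1 start site and 114 bases before that of HOXA2, and was also found in the window of HOXD11. It was held by 3 of the 20 members with a window, and by 7.40% of 35116 promoters of all genes. The HOXA3 and HOXD13 windows both held TTTATA, the TATA box read on the other strand, 29 bases before the start site, and an AGTTCA match 37 and 40 bases before it, respectively. In the HOXD13 window a TATAAA match overlaps it. The TATA spelling was present for 4 of the 20 members and in 11.5% of all promoters, AGTTCA for 5 members and in 10.4%, and the CDX spelling for 3 members and in 10.6%. The 20 members held 27 windows, several of them of HOXA3, so a member could match in more than 1 window whereas the share is per promoter. HOXC4 and HOXC5 have the same window, and its AGTTCA match was counted for both. The other receptor spelling searched, AGGTCA, was found for 0 members and in 13.8% of all promoters. Of the 300 bases shown, all were inside an ATAC peak of the gastruloid nuclei described below for HOXB1, 275 for HOXA2, 269 for HOXD13 and 0 for HOXA3. A match is a description of these letters only.

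The bulk libraries held 11583063 to 37152434 reads in genes, of which 8.30 to 34.7% were mitochondrial. The 4 libraries titled foregut stood apart from the other 8. Genes with 1 to 4 reads made up 3.07 to 3.86% of their detected genes, against 19.8 to 23.6% elsewhere. Their depth was 20811663 to 37152434 reads in genes, against 11583063 to 23539769 elsewhere, so the ranges overlapped. A foregut value listed at 0 was therefore not read as a detection limit, and no fold is printed as a bound against one. The fold used in a call with such a value is fitted and is no bound. The second CRISPRi foregut library had 439 genes with 10 to 20 reads, against 1369 to 1550 in the other 3 foregut libraries. Other label fields of the foregut libraries called the control pair hESC and the CRISPRi pair endoderm without sgRNA, in conflict with their titles. The marker genes followed the titles: the summed level of 8 foregut endoderm markers was 1933 to 2313 CPM (counts per 1000000 reads in genes) in control foregut, 1854 to 1877 in CRISPRi foregut, 29.7 to 35.0 in control endoderm and 8.24 to 9.53 in hESC, and POU5F1, NANOG, DPPA4 and TDGF1 were lower in control foregut than in hESC. The summed level of 8 definitive endoderm markers was 5464 to 6068 CPM in control endoderm and 31.2 to 42.4 in hESC. LTR5B, the subfamily whose consensus the guide was designed on, had 6.67 ± 0.41 (SD, n = 2) CPM in control foregut and 2.66 ± 0.37 (n = 2) in CRISPRi foregut, but 2.02 ± 0.37 (n = 3) and 1.64 ± 0.55 (n = 3) in the corresponding endoderm, where the arms overlapped within 1 SD. LTR5_Hs, the most abundant related subfamily, had 8.48 ± 0.34 and 6.502 ± 3.51 CPM in the foregut arms and 11.7 ± 1.12 and 9.84 ± 2.01 in the endoderm arms. The sgRNA libraries were thus lower in their targets beyond the spread only for LTR5B in foregut. In bulk samples, fewer cells of a type and less RNA per cell cannot be told apart.

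The HOX reads were few and posterior in hESC, more numerous but still mostly posterior in endoderm, and abundant and anterior in foregut. The summed HOX level was 4.25 and 5.54 CPM in the 2 hESC libraries, 13.4, 11.3 and 13.1 in control endoderm, 26.8, 25.01 and 20.3 in CRISPRi endoderm, 150.6 and 177.6 in control foregut and 152.1 and 167.0 in CRISPRi foregut. HOXB13 and HOXD13, the last genes of their clusters, together made up 73.6 to 81.0% of HOX reads in hESC, 65.2 to 69.5% in control endoderm, 45.5 to 56.2% in CRISPRi endoderm and at most 0.364% in foregut. HOXB1 and HOXB2, the first 2 genes of the HOXB cluster, made up 81.1 to 93.8% of HOX reads in the 4 foregut libraries. The paralog number averaged over reads was 11.8 in both hESC libraries, 10.3 to 11.2 in control endoderm, 8.89 to 9.53 in CRISPRi endoderm and 1.62 and 1.65 in control foregut.

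**Figure D1:**
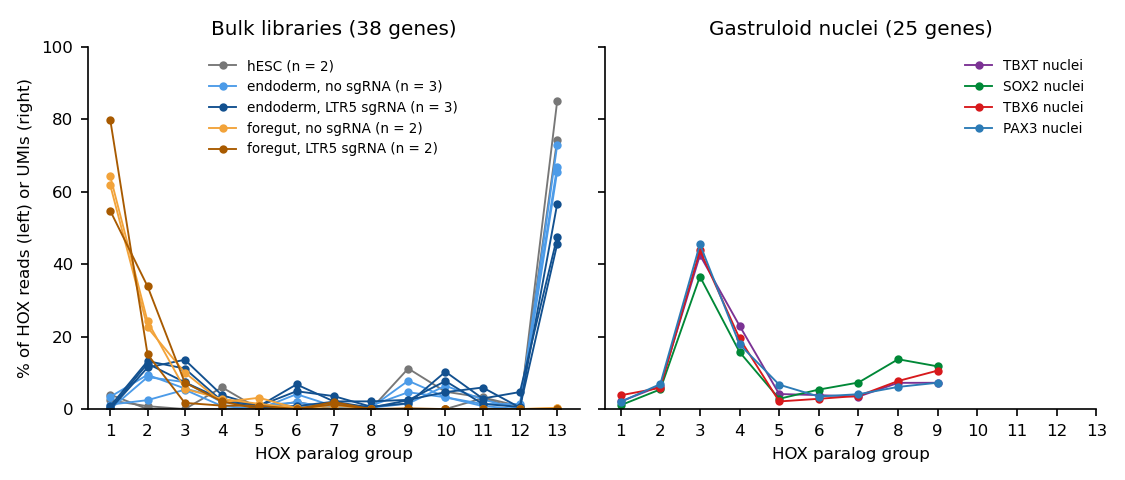
Percent of all HOX reads by HOX paralog group (x axis) in each bulk library (left, 1 line per library, 38 genes) and percent of HOX UMIs in the 4 marker classes of gastruloid nuclei (right, 1 line per class, 25 genes). Group 13 leads in hESC and endoderm, groups 1 and 2 lead in foregut, where HOXB1 and HOXB2 hold 81.1 to 93.8% of the reads, and group 3 leads in the nuclei.

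Most members were near 0 in every bulk library. An average of 1 CPM or more in at least 1 group was reached by 12 of the 38 members: 8 in control foregut (HOXA2, HOXA3, HOXA5 and HOXB1 to HOXB5), 7 in CRISPRi foregut, 5 in CRISPRi endoderm, 2 in control endoderm and 1, HOXB13, in hESC. Of the rest, 5 had no read in any of the 12 libraries. The HOXC cluster was low throughout, with a summed level of at most 0.86 CPM in any library and no read in foregut.

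**Figure D2:**
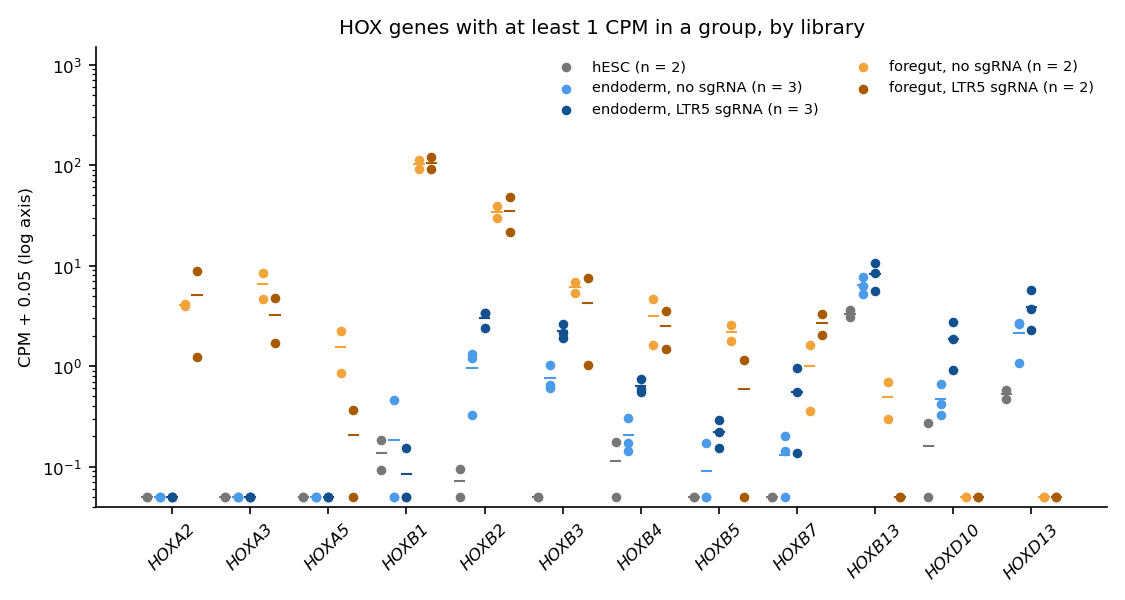
CPM plus 0.05 on a log axis for the 12 HOX genes that average 1 CPM or more in at least 1 group, with 1 point per library and a dash at the group mean; points at the bottom edge are libraries with no read. HOXB1 lies at 91.4 to 121.0 CPM in the 4 foregut libraries, whereas HOXB13, HOXD10 and HOXD13 are highest in endoderm.

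The comparison of control endoderm with hESC asked which members change at the first differentiation step. The summed level of 6 pluripotent markers overlapped, at 1684 to 2660 CPM in hESC and 1827 to 2566 in control endoderm. Of these, DPPA4 and SOX2 were called lower and TDGF1 higher, and POU5F1 and NANOG were not called. HOXB13 had 3.02 and 3.55 CPM in hESC and 7.73, 5.20 and 6.23 in endoderm. HOXD13 had 0.42 and 0.53 CPM in hESC and 1.02, 2.65 and 2.56 in endoderm. The groups did not overlap for either of these posterior genes, and both had reads in every library of both stages. HOXB2 had 1 read in hESC in all, and 1.27, 0.28 and 1.16 CPM in endoderm. HOXB3, with no read in hESC, had 0.56, 0.60 and 0.98 CPM. HOXB2, HOXB3 and HOXB13 of the HOXB cluster were thus higher in endoderm, at low absolute levels.

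By edgeR's quasi-likelihood test with Benjamini-Hochberg adjustment over all 20818 genes tested, with a call at an adjusted p below 0.05 and a fold above 2, 4 of the 20 members tested rose and 0 fell. All genes tested gave 26.0% called, 14.2% higher and 11.8% lower. HOXB2 rose by 5.09 ± 1.17 (log2, SE) with an adjusted p of 0.00168 in this edgeR test, and its pooled rate was 40.0 times that in hESC, with a 95% counting interval of 6.86 to 1612. HOXB3 rose with an adjusted p of 0.000778 (edgeR) and was at least 10.7-fold higher, against a floor of 3 counts over the hESC group. HOXD13 rose by 2.18 ± 0.51 (edgeR adjusted p = 0.00284) and HOXB13 by 1.03 ± 0.29 (edgeR adjusted p = 0.0101). The median log2 difference was 1.27 over the members tested and 0.04 over all genes. Without hESC replicate 1 the count was 1 (HOXB3), without hESC replicate 2 it was 3 (HOXB2, HOXB3 and HOXD10), and with all 12 libraries in 1 fit it was 2 (HOXB2 and HOXB3). HOXB3 was called in each of the 14 alternatives, HOXB2 in 13, HOXD13 in 11 and HOXB13 in 9.

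Mesoderm markers were called higher in control endoderm as well, among them TBXT, MIXL1 and SHH of 5 axial and nascent mesoderm markers, 4 of 5 presomitic, 3 of 6 paraxial markers tested and 3 of 6 lateral and cardiac markers, beside 14.2% of all genes called higher. The summed level was 7.05 to 13.9 CPM in hESC and 685 to 1032 in endoderm for the axial list, most of it MIXL1, and 2.44 to 3.02 and 33.7 to 76.9 CPM for the presomitic list. NOTO of the axial and TBX5 of the lateral list were called lower. The part of mesoderm in the HOX values was not tested.

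Of 18 upstream caudal, retinoid, WNT and FGF genes, 17 were tested and, beside the 26.0% of all genes called, 8 rose and 1, the retinoid reductase DHRS3, fell. CYP26A1, which degrades retinoic acid, rose from 12.8 ± 1.48 (SD, n = 2) to 854 ± 223 (n = 3) CPM, a log2 change of 6.11 ± 0.28 (SE, edgeR adjusted p = 4.67e-10). The retinoid receptor RARB rose from 0.04 to 1.71 CPM. Among the cofactor genes, MEIS1, MEIS3 and PBX2 rose. PRAC1, a small gene that lies between HOXB9 and HOXB13, rose from 0.78 ± 0.10 (n = 2) to 3.74 ± 1.54 (n = 3) CPM, by 2.32 ± 0.44 on the log2 scale (edgeR adjusted p = 0.000568).

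From endoderm to foregut the order of the clusters turned over. HOXB1, the most anterior member with high levels and a gene of the hindbrain and pharyngeal region, had 0.41, 0 and 0 CPM in control endoderm and 92.4 and 113.1 in control foregut. HOXB2 had 1.27, 0.28 and 1.16 CPM in endoderm and 29.8 and 39.1 in foregut. HOXB3 had 0.56, 0.60 and 0.98 CPM in endoderm and 6.80 and 5.33 in foregut. Each of these 3 neighbouring genes was thus higher in both foregut libraries than in any endoderm library, and per kb of exon their level in foregut decreased in order from HOXB1 to HOXB3. HOXB4 stood at 1.59 and 4.60 CPM and HOXB5 at 2.54 and 1.75, against at most 0.25 and 0.12 in endoderm.

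Of the HOXA genes, 3 had no read before the foregut stage. HOXA2, which patterns the second pharyngeal arch, had 4.11 and 3.96 CPM in the control foregut libraries. HOXA3, required for pharyngeal organs such as the thymus, had 8.36 and 4.58 CPM. HOXA5, a gene of lung and gut development, had 2.18 and 0.81 CPM. All 3 were at 0 in the 2 hESC and the 6 endoderm libraries. At the other end, HOXB13 had 0.25 and 0.65 CPM in foregut against 5.20 to 7.73 in endoderm. HOXD13, HOXD10 and HOXB9 were listed at 0 in both foregut libraries, after means of 2.08, 0.42 and 0.46 CPM in endoderm.

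By edgeR's quasi-likelihood test, 8 of 22 members tested rose (HOXA2, HOXA3, HOXA5 and HOXB1 to HOXB5) and 4 fell (HOXB9, HOXB13, HOXD10 and HOXD13). Among all 21466 genes tested 29.0% were called, 14.1% higher and 15.0% lower. Each member that rose belongs to paralog groups 1 to 5 and each that fell to groups 9 to 13. HOXB1 rose by 9.49 ± 0.67 (log2, SE; edgeR adjusted p = 1.87e-05), HOXB2 by 5.27 ± 0.49 (edgeR adjusted p = 7.94e-05), HOXB3 by 3.11 ± 0.46, HOXB4 by 4.24 ± 0.74 and HOXB5 by 5.73 ± 1.17, the last 3 with edgeR adjusted p of 0.000924, 0.00221 and 0.0044. HOXA2 was at least 77.3-fold, HOXA3 at least 121.8-fold and HOXA5 at least 27.8-fold higher than the floor of 3 counts over the endoderm group. HOXB13 fell by 3.83 ± 0.52 on the log2 scale (edgeR adjusted p = 0.000603).

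Markers of other cell types were also called higher in control foregut than in endoderm. Of 8 paraxial mesoderm markers MEOX1 and TWIST1 were called higher, at 1.35 ± 0.73 and 3.07 ± 1.42 CPM in foregut (SD, n = 2), and FOXC1 and UNCX lower, while the summed level of the list was 32.9 to 61.7 CPM in endoderm and 16.4 to 16.8 in foregut. Of the endothelial markers CDH5 and TEK were called higher and KDR lower, with a summed level of 68.6 to 154 CPM in endoderm and 49.9 to 74.6 in foregut. Of 4 blood markers HBE1 and HBZ were called higher, and their sum was 0.814 to 2.32 CPM in endoderm and 17.6 to 19.1 in foregut. Their part in the HOX values was not tested.

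The 8 rises and the falls of HOXB13 and HOXD13 were called under each alternative and each left-out library. The calls of HOXB9 and HOXD10 were lost without any single endoderm library. The falls of HOXB9, HOXD10 and HOXD13 all rest on values listed at 0 in the foregut tables. In the annotation HOXA3, HOXA4 and HOXB2 to HOXB6 overlap a neighbour or an antisense RNA, such as HOXB3 with HOXB4, HOXB6 and HOXB-AS1, whereas HOXA2, HOXA5, HOXB1, HOXB13 and HOXD13 overlap none. The strand used in counting is not given in the sources used here, so a gene and its antisense partner cannot be told apart.

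Scaled by exon length, HOXB1 led in control foregut at 41.3 ± 5.90 CPM per kb (SD, n = 2), followed by HOXB2 at 14.03 ± 2.65. The next 6 members lay between 0.817 (HOXB3) and 1.73 (HOXA2) CPM per kb. HOXA2, HOXB4, HOXA3 and HOXB5 followed each other there with overlapping spreads. Of the neighbours in this order, only the lead of HOXB1 over HOXB2 and of HOXB2 over the rest exceeded the spread between libraries.

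Against hESC, control foregut gave 10 members higher (the 8 above with HOXA4 and HOXB7) and 1 lower (HOXB13) of 22 tested by edgeR's quasi-likelihood test, with 32.7% of all genes called, 16.0% higher and 16.6% lower. This comparison shares the foregut libraries with the previous one. HOXA4 had 1.29 and 0.38 CPM and HOXB7 0.31 and 1.59 in control foregut, and neither had a read in hESC. HOXA4 and HOXB7 were each called in 9 of the 13 alternative settings, while HOXB13 fell by 2.84 ± 0.68 on the log2 scale (edgeR adjusted p = 0.0146) and was called in 11 of 13.

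From control endoderm to control foregut, the cofactor genes MEIS1, MEIS2 and PKNOX2 rose, and MEIS3, PBX3 and PKNOX1 fell. MEIS1 rose from 1.14 ± 0.60 (SD, n = 3) to 40.4 ± 10.9 (n = 2) CPM, by 5.16 ± 0.43 on the log2 scale (edgeR adjusted p = 4.12e-05). MEIS2 rose from 4.66 ± 2.52 to 102 ± 12.4 CPM, while PBX3 fell from 44.5 ± 13.4 to 18.8 ± 5.70 CPM. Of the 18 upstream genes, 5 rose from endoderm to foregut (CDX2, CYP26B1, DHRS3, RARA and RARB) and 4 fell (CYP26A1, FGF8, WNT3A and WNT8A), beside 14.1% of all genes called higher and 15.0% lower. DHRS3, whose product lowers retinoic acid and which retinoic acid itself induces, rose from 1.66 ± 0.81 to 477 ± 130 CPM, by 8.15 ± 0.37 (log2, SE; edgeR adjusted p = 2.65e-06). Thus the retinoid receptors RARA and RARB rose, and the WNT and FGF ligands of the list that were called fell. Against hESC, CYP26A1 and MEIS3 were instead called higher in control foregut.

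Of 16 chromatin regulators, RING1 rose and JARID2, KDM6A, KMT2D and SUZ12 fell. JARID2, a Polycomb subunit, fell by 1.20 ± 0.29 on the log2 scale (edgeR adjusted p = 0.0113), and the other 11 were not called. The 5 of 16 called stand beside 29.0% of all genes. Of 26 RNAs and small genes inside the clusters, 23 were in the table and 7 were tested: HOXA-AS2 and HOXB-AS1, antisense to anterior members that rose, were higher, and PRAC1 and PRAC2 were lower. PRAC1 and PRAC2, at 3.74 ± 1.54 and 5.61 ± 2.31 CPM in endoderm, were listed at 0 in both control foregut libraries. Among the genes that flank the clusters, SKAP1 rose from 0.18 ± 0.06 to 3.42 ± 0.80 CPM, SKAP2 also rose and EVX1 fell.

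With the LTR5 sgRNA present at both stages, 4 members rose (HOXA2, HOXA3, HOXB1 and HOXB2) and 5 fell (HOXB6, HOXB13, HOXD10, HOXD11 and HOXD13) of 22 tested from endoderm to foregut by edgeR's quasi-likelihood test, against 26.3% of all genes called, 12.9% higher and 13.4% lower. The 5 that fell were each listed at 0 in both CRISPRi foregut libraries. HOXB6 and HOXD11 were each called in 10 of 14 alternatives, HOXD10 in 13 and HOXB13 and HOXD13 in 14. HOXB1 had 0, 0.10 and 0 CPM in CRISPRi endoderm and 121.0 and 91.4 in CRISPRi foregut. HOXB2 had 3.36, 3.31 and 2.33 CPM in CRISPRi endoderm and 21.8 and 47.7 in CRISPRi foregut, a rise of 3.52 ± 0.37 on the log2 scale (edgeR adjusted p = 0.000454). The 2 CRISPRi foregut libraries differed by several-fold for other anterior members: HOXA2 had 1.19 and 8.89 CPM, HOXA3 1.63 and 4.71, and HOXB3 0.97 and 7.496. Left-out libraries gave 6 to 12 calls here, the highest without CRISPRi foregut replicate 1 (12) and the lowest without CRISPRi endoderm replicate 1 (6). Of 8 paraxial mesoderm markers, MEOX1, TCF15 and TWIST1 were also called higher and FOXC1 and UNCX lower. The endothelial markers CDH5 and TEK were called higher, and FOXF1 and HAND1 of the lateral and cardiac list lower. The part of these cell types in the HOX values was not tested.

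The effect of LTR5 repression within endoderm was compared at a fixed stage. No member passed the call, while several posterior and HOXB members had higher values with the sgRNA. HOXB2 had 1.27, 0.28 and 1.16 CPM without the sgRNA and 3.36, 3.31 and 2.33 with it. HOXB3 had 0.56, 0.60 and 0.98 CPM without and 1.86, 2.60 and 2.07 with it. HOXD10, a limb and trunk gene, had 0.61, 0.28 and 0.37 CPM without and 2.70, 1.83 and 0.86 with it. For these 3 genes each CRISPRi library lay above each control library, and so it did for HOXB4, at 0.25, 0.09 and 0.12 CPM without and 0.54, 0.51 and 0.69 with the sgRNA, and for HOXD11. The share of all genes that separate in this way was not counted, so the separation alone is a description. HOXD13 overlapped between the arms, at 1.02 to 2.65 CPM without and 2.22 to 5.70 with the sgRNA, as did HOXB13, at 5.20 to 7.73 and 5.61 to 10.5 CPM.

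By edgeR's quasi-likelihood test 0 of 21 members tested were called, and of all 20407 genes 0.0343% were. DESeq2 and limma voom also gave 0. At an unadjusted p below 0.05, 9 members had higher values with the sgRNA (HOXB2, HOXB3, HOXB4, HOXB6, HOXB7 and HOXD10 to HOXD13) and 0 lower, where all genes gave 2.66% higher and 2.52% lower. The lowest edgeR adjusted p among them was 0.311, for HOXB3, with a log2 difference of 1.63 ± 0.39 (SE). HOXB2 differed by 1.78 ± 0.47 and HOXD10 by 2.16 ± 0.52 on the log2 scale, both with edgeR adjusted p above that of HOXB3. Without a filter on low counts the same tool called 3 members higher, HOXB2, HOXB3 and HOXD10, and left-out libraries gave 0 calls each time.

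Of the mesoderm lists, only the lateral and cardiac sums did not overlap between the arms. The summed level of 6 lateral and cardiac mesoderm markers was 19.97 to 33.6 CPM in control and 51.9 to 62.9 in CRISPRi endoderm. HAND1 had 13.9, 11.8 and 24.5 CPM without the sgRNA and 47.6, 38.6 and 48.7 with it. FOXF1 had 1.27, 0.60 and 1.04 CPM without and 4.92, 2.70 and 3.02 with it. HAND1 made up most of each lateral and cardiac sum. Without HAND1 and FOXF1 the sums of the rest of that list overlapped between the arms. The 5 presomitic markers summed to 33.7 to 76.9 CPM without and 59.5 to 116.9 with the sgRNA. The axial and nascent mesoderm markers summed to 685 to 1032 and 839 to 1143 CPM in the same order. For the paraxial markers the sums were 32.9 to 61.7 and 33.6 to 57.8 CPM. The 8 definitive endoderm markers summed to 5464 to 6068 and 6214 to 6731 CPM. None of the mesoderm markers was called, and their part in the HOX values was not tested.

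**Figure D3:**
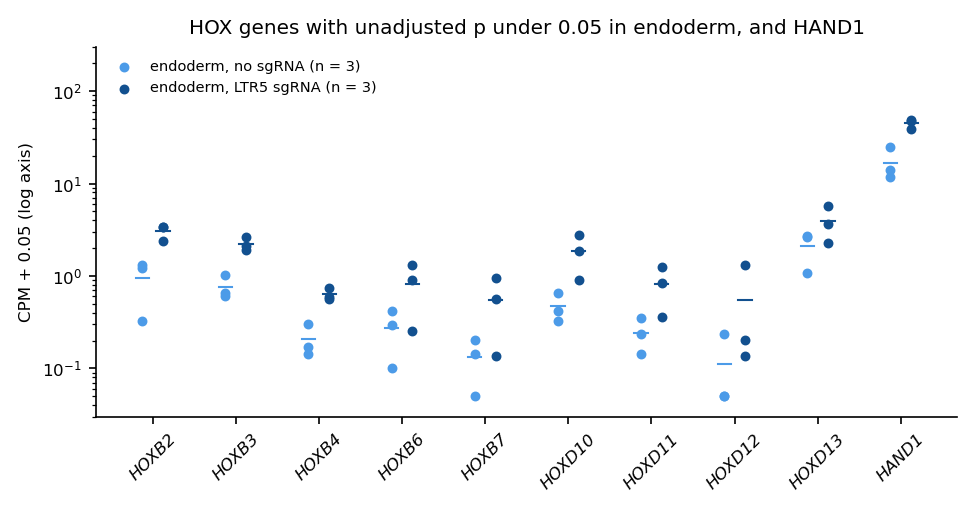
CPM plus 0.05 on a log axis for the 9 HOX genes with an unadjusted p below 0.05 and for the mesoderm gene HAND1 in endoderm without and with the LTR5 sgRNA, with 1 point per library and a dash at the mean of 3. HOXB2 and HOXB3 do not overlap between the arms, nor does HAND1, whereas HOXD13 does; none of the 9 was called after adjustment.

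In foregut the leading members overlapped between the arms. HOXB1 had 92.4 and 113.1 CPM without and 121.0 and 91.4 with the sgRNA, and HOXB2 29.8 and 39.1 against 21.8 and 47.7. The log2 difference was 0.11 ± 0.33 (SE) for HOXB1 and -0.01 ± 0.39 for HOXB2. HOXA5 had 2.18 and 0.81 CPM without and 0.31 and 0 with the sgRNA, and HOXB5 2.54 and 1.75 against 1.10 and 0, neither called. HOXB7 had the opposite order, with 0.31 and 1.59 CPM without and 2.01 and 3.27 with the sgRNA, and was not called either. By edgeR's quasi-likelihood test 0 of 15 members tested were called and 0 had an unadjusted p below 0.05, where all genes gave 0.165% called and 3.49% at the unadjusted p, and DESeq2 and limma voom gave 0 too. With 2 libraries in each arm, standard errors of 0.33 and 0.39 on the log2 scale limit what could be seen even for these 2 members. CDX2, the caudal gene upstream of the clusters, fell from 18.0 ± 7.18 to 2.79 ± 1.90 CPM (n = 2 each), by 2.77 ± 0.57 on the log2 scale (edgeR adjusted p = 0.000992), at 23.1 and 12.9 CPM without and 1.44 and 4.13 with the sgRNA. It was the only 1 of the 15 upstream genes tested that was called there. The foregut markers AFP and PDX1 and the blood marker HBE1 were also called lower, and their part was not tested.

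The test of whether the sgRNA effect differed between the stages, an interaction term over 10 libraries, called 0 of 25 members by edgeR, with 0.194% of all genes tested called, and 1 by DESeq2 and 0 by limma voom. At an unadjusted p below 0.05, HOXA4, HOXB2, HOXB3, HOXB6 and HOXB13 had a lower difference in foregut than in endoderm, against 8.23% of all genes in either direction and 4.85% in this one. For HOXB2 the difference of the effects was -1.80 ± 0.64 (log2, SE) with an edgeR adjusted p of 0.497. The lowest edgeR adjusted p was 0.0628, for HOXB13, which was listed at 0 in both CRISPRi foregut libraries and was the member that DESeq2 called. For 13 of the 25, such as HOXA2 and HOXD10, neither arm of 1 stage had a read and this term could not be estimated, so that 12 members could have been called.

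In the gastruloid nuclei a broader HOX code was present. The nuclei table held 25 of the 38 members. The other 13 (HOXA10, HOXA11, HOXA13, HOXB13, HOXC10 to HOXC13 and HOXD9 to HOXD13) have no row in a table whose rarest gene was seen in 34 nuclei, so the members counted here reach paralog group 9 at most. After removing nuclei with under 1000 UMIs, under 200 genes or over 25% mitochondrial UMIs, 3422 nuclei with a median of 16302 UMIs remained, and 70 (2.05%) were called doublets and kept. Nuclei were thinned to 5000 UMIs (225 shallower ones left out) and put in a class if they held TBXT (axial and nascent mesoderm), SOX2 (neural and stem cells), TBX6 (presomitic mesoderm) or PAX3 (paraxial mesoderm and dorsal neural tube) and none of the other 3. That gave 291, 178, 186 and 1184 nuclei, and 730 nuclei held none of the 4. The study named the gastruloid cluster that expresses SOX2 neuro-mesenchymal progenitors. The nuclei come from 1 preparation, so no test was made, and the 95% intervals (exact Poisson for UMIs, Clopper-Pearson for shares) cover counting error only.

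The classes held other genes of the types their markers stand for. NOTO, a notochord gene, had 245 CPM (here UMIs per 1000000 UMIs of the class) in TBXT nuclei against 10.8 to 40.1 in the others. MSGN1, a presomitic gene, had 47.8 in TBX6 nuclei against 4.3 to 7.6. MEOX1, a somite gene, had 275 in PAX3, 136 in TBX6, 82.8 in SOX2 and 58.0 in TBXT nuclei. SOX3, a neural gene, had 12.5 in SOX2 nuclei against 0.6 to 2.6.

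HOX UMIs were most frequent in TBX6 nuclei. All 25 members together had 1403 CPM (95% interval 1363 to 1443) in TBX6 nuclei, 1224 (1187 to 1261) in SOX2 nuclei, 718.6 (706.8 to 730.5) in PAX3 nuclei and 603.7 (583.9 to 624.0) in TBXT nuclei. After thinning, a HOX UMI was found in 99.5% of TBX6, 93.3% of SOX2, 92.5% of PAX3 and 81.1% of TBXT nuclei, with a median of 5, 5, 2 and 2 HOX genes per nucleus. Median depth before thinning was 17869.5, 17811, 15517 and 19427 UMIs in the same order, so that the class with the fewest HOX UMIs was the deepest. Nuclei with both TBXT and SOX2 (81 nuclei, 993 CPM) and with both TBX6 and PAX3 (74 nuclei, 1095 CPM) fell between their single-marker classes.

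By UMI counts, which were not scaled by length, HOXB3 had the highest value in each of the 4 classes, although in TBX6 nuclei its interval (256 to 291) overlapped that of HOXD3 (237 to 271). It had 273 CPM in TBX6, 236 in SOX2, 163 in PAX3 and 153 in TBXT nuclei. HOXD3, its paralog in the HOXD cluster, had 254 in TBX6, 121 in PAX3, 109 in SOX2 and 48.5 in TBXT nuclei, where HOXB4 had 104 and HOXA3 55.4. HOXB3 was thus spread over the classes within 1.79-fold, while HOXD3 was 5.23-fold higher in TBX6 than in TBXT nuclei. After thinning HOXD3 was found in 67.7% of TBX6 nuclei (60.5 to 74.4) and in 14.8% of TBXT nuclei (10.9 to 19.4), against 85.5% and 26.8% before thinning.

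The TBX6 class was the highest for 12 members, with an interval above that of the second class for 7 of them: HOXB1, HOXB2, HOXB3, HOXB4, HOXD1, HOXD3 and HOXD4. These 7 belong to paralog groups 1 to 4 of the HOXB and HOXD clusters. How many of all genes were apart from the second class by this rule, here or for the other classes below, was not counted. HOXB1 had 18.2 CPM (13.9 to 23.3) in TBX6 nuclei and 3.1 to 3.8 in the other classes. HOXD1 had 35.2 in TBX6 nuclei and 9.3 to 10.5 elsewhere. HOXD4 had 61.6 in TBX6 nuclei, 23.8 in PAX3, 19.5 in SOX2 and 11.7 in TBXT nuclei. HOXB9 was also highest there, at 132 (120 to 145), but its interval overlapped that of SOX2 nuclei at 113 (102 to 125).

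The SOX2 class was the highest for 10 members and apart from the second class for 5: HOXA7, HOXB8, HOXC6, HOXC8 and HOXC9, which belong to groups 6 to 9. HOXC8, a gene of the thoracic level, had 87.4 CPM (77.8 to 97.9) in SOX2, 46.6 in TBX6, 18.8 in TBXT and 12.8 in PAX3 nuclei. HOXA7 had 49.1 (42.0 to 57.1) in SOX2 nuclei, 20.2 in TBX6, 11.0 in PAX3 and 9.6 in TBXT nuclei. HOXB8 had 79.9 in SOX2 and 58.9 in TBX6 nuclei, and 24.3 to 29.7 in the others. PAX3 nuclei were the highest for HOXA2, HOXA5 and HOXB5, of which HOXA5 stood apart at 28.8 (26.5 to 31.3) against 17.7 (13.6 to 22.8) in SOX2 nuclei. No member was highest in TBXT nuclei.

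Other members were shared by SOX2 and TBX6 nuclei with overlapping intervals. HOXC4 had 62.2 CPM in SOX2 and 61.6 in TBX6 nuclei, against 21.2 in TBXT and 17.9 in PAX3 nuclei. HOXA3 had 104 CPM (93.2 to 115) in SOX2 and 88.2 (78.6 to 98.8) in TBX6 nuclei, against 55.4 in TBXT and 43.1 in PAX3 nuclei. HOXB7 had 40.7 and 30.8 CPM in SOX2 and TBX6 nuclei and 11.2 and 18.6 in TBXT and PAX3 nuclei. In these 3 genes the SOX2 and TBX6 classes were the upper 2 of the 4. The same held for most other members of the nuclei table, such as HOXA7, HOXB3 and HOXC8, whose intervals in these classes did not overlap. HOXB1, which led the foregut libraries, was among the rarer members here, found in 5.91% of thinned TBX6 nuclei and in at most 1.37% of the other 3 classes.

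**Figure D4:**
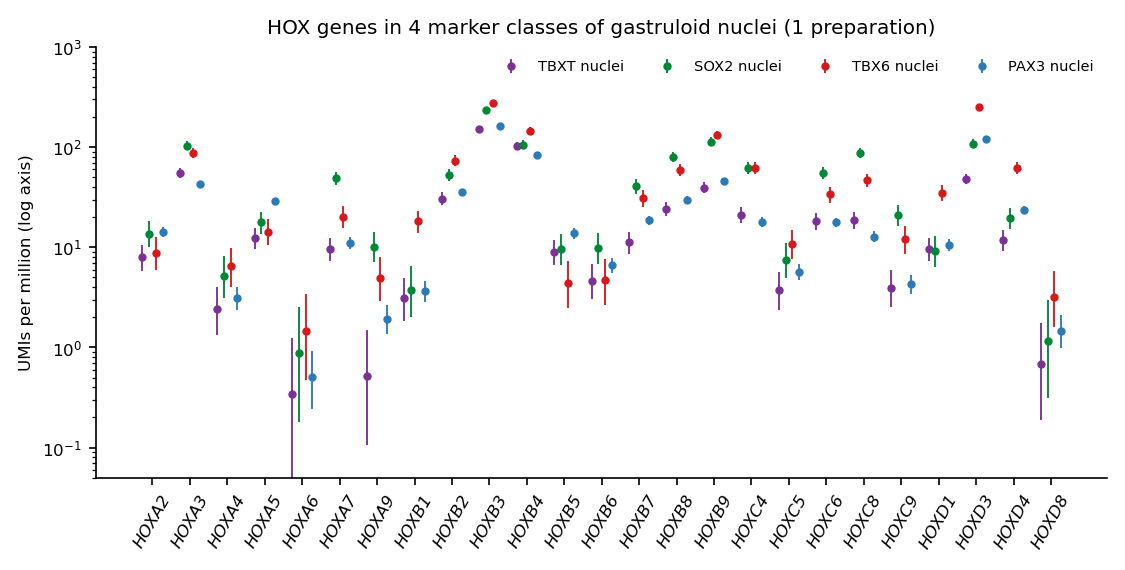
CPM on a log axis for the 25 HOX genes of the nuclei table in TBXT, SOX2, TBX6 and PAX3 nuclei, with exact Poisson 95% intervals. TBX6 nuclei lead for HOXB1, HOXD1, HOXD3 and HOXD4, SOX2 nuclei for HOXA7, HOXC6, HOXC8 and HOXC9, and PAX3 nuclei for HOXA5.

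The highest class was apart from the lowest for 22 of the 25 members, against 52.8% of all 17493 genes of the table, which include many with few UMIs. The median ratio of highest to lowest class was 3.35 over the members and 1.69 over all genes. HOXA4, HOXA6 and HOXD8 were not apart. In 21 members at least 5% of the thinned nuclei of some class held a UMI, and HOXA4, HOXA6, HOXB6 and HOXD8 did not reach that share.

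The members' ratio to each other changed from class to class. There were 0.81 HOXC8 UMIs for each HOXD3 UMI in SOX2 nuclei (0.69 to 0.94), 0.39 in TBXT, 0.18 in TBX6 (0.15 to 0.22) and 0.11 in PAX3 nuclei. HOXA7 stood to HOXA5, in the same cluster, as 2.77 (2.06 to 3.78) in SOX2 nuclei, 1.41 in TBX6, 0.78 in TBXT and 0.38 (0.32 to 0.45) in PAX3 nuclei. Free RNA was not measured.

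By cluster, HOXB genes gave the majority of HOX UMIs in each class, from 52.7% in TBX6 to 62.7% in TBXT nuclei. HOXC genes gave 19.1% (17.9 to 20.3) of HOX UMIs in SOX2 nuclei and 8.15 to 11.7% in the others. HOXD genes gave 25.2% (24.0 to 26.5) in TBX6 and 21.9% (21.2 to 22.6) in PAX3 nuclei, against 11.3% in SOX2 and 11.7% in TBXT nuclei. HOXA genes varied less, from 10.3% in TBX6 to 16.4% in SOX2 nuclei.

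**Figure D5:**
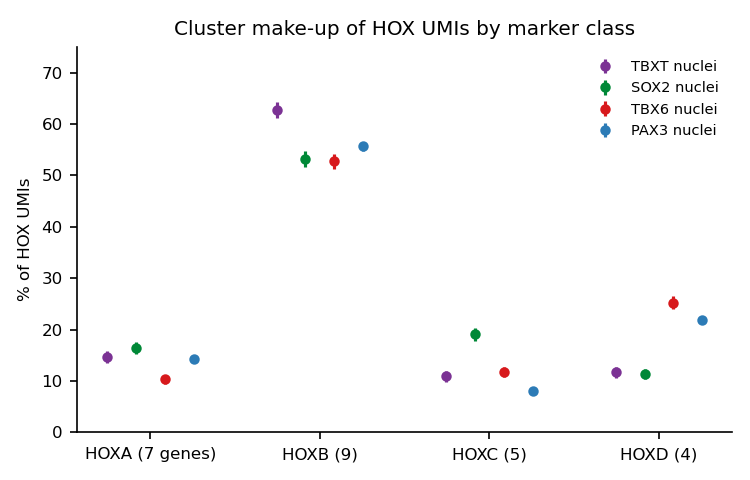
Percent of HOX UMIs from each cluster in the 4 marker classes of nuclei, with Clopper-Pearson 95% intervals; the number of genes per cluster in the nuclei table is given on the x axis. HOXC is largest in SOX2 nuclei (19.1%) and HOXD in TBX6 nuclei (25.2%).

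By paralog group, anterior members gave 43.1% of HOX UMIs in SOX2 nuclei and 51.0 to 54.4% in the other classes, central members 45.1% in SOX2 and 35.8 to 41.7% in the others, and posterior members (group 9 alone) 11.8% in SOX2, 10.6% in TBX6, 7.28% in PAX3 and 7.27% in TBXT nuclei. A group 9 gene was detected after thinning in 89 of 178 SOX2 nuclei and in 92 of 186 TBX6 nuclei (49.5%, 42.1 to 56.9), against 18.4% of PAX3 (16.2 to 20.7) and 17.9% of TBXT nuclei (13.6 to 22.8). HOXB9 accounted for most of this, being found in 45.2% of TBX6 and 42.7% of SOX2 nuclei, whereas HOXA9 was found in at most 5.06% of any of the 4 classes.

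The cofactors and regulators had an order of their own. MEIS1 had 144 CPM in PAX3, 79.7 in TBX6, 35.4 in SOX2 and 17.7 in TBXT nuclei, and MEIS2 had 553 in TBX6 and 512 in PAX3 against 179 and 151 in SOX2 and TBXT nuclei. CDX2 had 77.3 in SOX2, 61.8 in TBXT, 45.4 in TBX6 and 18.9 in PAX3 nuclei. ALDH1A2, which makes retinoic acid, had 121 in PAX3 and 72.7 in TBX6 nuclei against 39.2 in SOX2 and 31.3 in TBXT nuclei. Of the antisense RNAs, HOXB-AS3 had 429 in TBX6 and 375 in SOX2 nuclei against 185 in PAX3 and 178 in TBXT nuclei, and HOXA-AS3 189 and 196 against 48.0 and 79.9. Both were highest in the 2 classes with the most HOX UMIs.

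The ATAC library of the same preparation gave 205374 peaks on GRCh38, called over all nuclei together, so the peaks do not show which class a peak was open in. A peak lay within 1 kb of the start site of 31 of 38 members (81.6%, interval 65.7 to 92.3), and of 78.2% of 19054 protein-coding genes. It covered the start site of 26 members (68.4%, against 67.9% of all). HOXC4, HOXC5 and HOXC6 have the same start site here, and its peak was counted for each of them, also in the interval. At these settings the members' share was near the background. Within 5 kb, all 38 members had a peak (100%, interval 90.7 to 100), against 87.2% of all genes. With peaks of at least the median width of 878 bp, 9 members (23.7%) and 43.5% of all genes had one within 1 kb. Peaks were within 1 kb for 5 of 7 anterior, 12 of 15 central and 14 of 16 posterior members, although 13 of those 16 have no row in the nuclei table. HOXB13, HOXD12 and HOXC10 to HOXC13 were among the posterior members with a start site in a peak. The outermost HOXA3 start site, by contrast, was 1161 bp from the nearest peak, that of HOXD3 2635 bp and that of HOXD4 3614 bp.

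Peaks covered more of the clusters than of the DNA beside them. In HOXA (chr7:27100354-27200091, GRCh38) they covered 25.2%, in HOXB (chr17:48528526-48728750) 20.9%, in HOXC (chr12:53938831-54056030) 19.8% and in HOXD (chr2:176087487-176190907) 22.2%, against 9.10, 11.0, 12.1 and 7.58% in the 500 kb on each side. The transposable element annotation, on GRCh37, showed the reverse. It held 3.01 repeats per 100 kb in HOXA, 11.9 in HOXC and 24.4 in HOXD, where the 500 kb flanks held 141 to 173 and the median 100 kb window of the genome 150. HOXB held 121 per 100 kb, beside 196 in its flanks, over a span of 200 kb that includes the long gap before HOXB13. There was no LTR5_Hs or LTR5B copy inside any cluster. The nearest copy was an LTR5_Hs 542 kb from HOXA, 1277 kb from HOXC, 2244 kb from HOXB and 5837 kb from HOXD.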

How the data were processed

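Bulk RNA-seq came as counts that the authors deposited: stranded mRNA libraries were aligned to hg19 with HISAT2, and unique reads were counted over genes and transposable elements in 1 annotation with featureCounts. The gastruloid table held UMI counts that the authors made with cellranger-arc 2.0.0 on hg38, with peaks from the same run. The members and the gene lists were chosen with earlier results of these data known. Groups were taken from titles, and the study describes its replicates as biologically independent without saying how they were separated.

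Each comparison was fitted on its own libraries with edgeR 4.0.16 (TMM scaling, quasi-likelihood test) in R 4.3.3, for genes with at least 3 reads in 1 library, and adjusted by Benjamini-Hochberg over all genes tested. A gene was called at an adjusted p below 0.05 and a fold above 2. DESeq2 1.42.0 and limma 3.58.1 (voom) were alternatives, beside other filters, a replicate block and left-out libraries. The steps were tested on simulated data. Members were named where called or averaging 1 CPM in a group, and in nuclei where 5% of a class held a UMI; of the lists, at most 4 called genes with the largest change were given values. Nuclei were thinned with a fixed seed, doublets were scored with scrublet in scanpy 1.11.5, and promoter windows were read from RefSeq GRCh38.p14. Some genes of the lists are not reported here.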

Additional observations from a re-analysis of the deposited data

How the results depend on the processing

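Leaving out 1 library at a time gave 1 to 4 called HOX genes for endoderm against hESC, 10 to 14 for foregut against endoderm, 8 to 13 for foregut against hESC, 6 to 12 for CRISPRi foregut against CRISPRi endoderm, 0 to 0 for CRISPRi in endoderm, 0 to 1 for CRISPRi in foregut and 0 to 2 for the difference of the CRISPRi effects. Without hESC replicate 1 the count for endoderm against hESC was 1, which is over 1.5 times below the main count, and the lowest for CRISPRi foregut against CRISPRi endoderm, 6, was without CRISPRi endoderm replicate 1. In CRISPRi foregut the 1 call, without CRISPRi foregut replicate 1, was HOXB5, and the 2 calls for the difference of effects without that library were HOXB5 and HOXB13. With all 12 libraries in 1 fit there were 2 calls for endoderm against hESC, 1 for CRISPRi in foregut and 1 for the difference of effects, the last 2 both HOXB13. DESeq2 and the fit without a filter also gave 1 (HOXB13) for the difference, and the fit without a filter gave 3 for CRISPRi in endoderm. An unadjusted p below 0.05 with a fold above 2 gave 14 for CRISPRi foregut against CRISPRi endoderm, 8 for CRISPRi in endoderm and 5 for the difference of effects. Of 493 alternative values of the 36 named gene changes, 457 kept their direction and their side of the threshold and 36 kept the direction but lost the call; 25 of the 36 changes were called each time. The cause was not tested.

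The replicate numbers did not pair the libraries: same-numbered libraries correlated between -0.0469 and 0.0756 in their deviations from the group means. With the replicate block, the counts of calls in the order above were 3, 10 (without HOXB9 and HOXD10), 9, 7, 0, 0 and 0.

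With at least 2 UMIs of the marker, HOX CPM was 449.9 in TBXT, 1470 in SOX2, 1525 in TBX6 and 667.6 in PAX3 nuclei. Whatever the other 3 markers held, it was 823.2 in TBXT, 1315 in TBX6 and 833.3 in PAX3 nuclei. Thinned to 10000 UMIs it was 560.2 in TBXT, 1064 in SOX2 and 697.3 in PAX3 nuclei, and thinned to 2000 UMIs 1381 in SOX2 and 731.7 in PAX3 nuclei. TBX6 nuclei had 1386 at 2000 and 1437 at 10000 UMIs, so at 2000 UMIs SOX2 nuclei had nearly the TBX6 level. Class values not given lay within their own 95% interval. Leaving out called doublets, chosen after seeing the data, gave values within the 95% interval of each of the 4 classes. With peaks of at least the median width, 9 HOX start sites had a peak within 1 kb.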

Other observations

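Some pairs of HOX genes were found together in more of the thinned nuclei than the product of their shares gives, over all 3197 nuclei, which share 1 library and mix the classes above. HOXC6 and HOXC8, of 1 cluster, were both present in 118 nuclei, where the product gives 39.9. HOXA7 and HOXC6 were both present in 100, where it gives 31.4, and HOXB9 and HOXC8 in 194, where it gives 91.6. Other pairs across clusters lay below it, such as HOXB5 and HOXC4, present together in 18 nuclei where the product gives 25.3. The 4 pairs were picked after their values were seen.

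Reads assigned to transposable elements inside the HOX clusters were few in bulk RNA. The HOXB cluster held 10 such reads in the first CRISPRi foregut library and at most 4 in any other library, and the HOXA, HOXC and HOXD clusters held 0 in each of the 12.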
